A study of Mus musculus with 15 samples.

Results

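Transcripts known from the liver were measured in the hearts of db/+ mice and of db/db mice with and without rosiglitazone. The set held 34 genes of hepatocytes, the main cell type of the liver. They had been picked because earlier results of the same arrays showed them high in some hearts. Their differences between groups, the calls counted among them and their correlations over hearts are therefore given as a description and support nothing. Each gene was taken by its name on the array, at its brightest probe by mean heart signal, and 33 of the 34 were found among 28599 genes on the array. Of these, 31 were matched by name, and Alb and Hpx by the accession of their probe. Serpina1a was not matched to a probe of its own.

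The genotype was C57BL/KLS-leprdb/lepr+ for the db/+ controls and C57BL/KLS-leprdb/leprdb for both db/db groups. The controls carried the mutation of the leptin receptor gene on 1 copy and the db/db mice on both, and db/db mice become obese and diabetic. The treated db/db mice had eaten rosiglitazone, an activator of the nuclear receptor PPAR gamma, at 5 mg/kg per day in chow for 4 months, and the other 2 groups were kept for the same 4 months without it. Whole hearts of 5 mice a group were used, 1 heart an array, and the age of the mice is not given in the sources used here. Each of the 15 arrays carried heart RNA in the red dye Cy5 and a commercial mouse reference RNA in the green dye Cy3, and a log2 ratio below is heart over reference. The heart signal is the processed red intensity.

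Hepatocytes make most of the proteins of blood plasma and secrete them. They also assemble lipoproteins, break down amino acids into urea, make glucose, and oxidise drugs with cytochromes P450. Heart muscle makes few of these transcripts, although some, such as that of apolipoprotein B, are known from cardiomyocytes. The hepatocyte factors HNF1, HNF4 and C/EBP bind the start regions of many of these genes.

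Of the 34 genes, 27 had an entry in the RefSeq promoter table (GRCm38.p6). The 150 bases before the start of 3 of them are shown because these genes bear on the results in different ways. Alb had the widest range of heart signal, Fgb followed the common pattern, and Cyp2e1 was higher in every db/db heart. Capitals mark the HNF1 half-site (GTTAAT), the C/EBP site in the form TTGCNNAA, or the TATA box (TATAAA), on either strand.

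Alb, chr5:90460720-90460869, plus strand: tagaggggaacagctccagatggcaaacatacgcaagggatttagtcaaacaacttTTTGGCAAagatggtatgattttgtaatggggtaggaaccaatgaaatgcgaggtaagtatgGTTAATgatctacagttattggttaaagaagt
Fgb, chr3:83049864-83050013, minus strand: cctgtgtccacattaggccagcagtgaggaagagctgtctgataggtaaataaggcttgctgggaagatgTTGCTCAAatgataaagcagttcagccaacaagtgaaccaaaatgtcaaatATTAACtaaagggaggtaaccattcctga
Cyp2e1, chr7:140763669-140763818, plus strand: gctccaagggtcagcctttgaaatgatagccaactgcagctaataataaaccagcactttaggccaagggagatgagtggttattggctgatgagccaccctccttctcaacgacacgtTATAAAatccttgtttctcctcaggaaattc

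The Alb and Fgb stretches each held GTTAAT and TTGCNNAA, while the Cyp2e1 stretch held TATAAA alone. Over the 250 bases before the start, GTTAAT was in 7 of the 27 promoters (25.9%) and in 6.44% of all 32817 in the table. TTGCNNAA was in 6 of 27 (22.2%) against 9.57% of all, and TATAAA in 6 of 27 (22.2%) against 12.4%. CAAAGTCCA, a form of the HNF4 site, was in 0 of 27 and in 0.384% of all. None of these 4 words contains another, although their ends can overlap. In that window Ambp, Bhmt, F2, Fbp1, Rbp4 and Serpinc1 held none of the 4 words, although they followed the common pattern. Apoa2 and Cyp3a44 held TATAAA alone, like Cyp2e1, and Fga held both GTTAAT and TTGCNNAA. A link of the words to the pattern over hearts was not tested. A match is a run of letters and was not tested for binding.

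The liver-type transcripts were high in some hearts and near the db/+ level in others of the same group. For each transcript the heart signal was divided by its mean over the db/+ hearts, and the median of the 33 was taken in each heart. This median was 1.25, 1.29, 0.558, 0.931 and 1.18 in db/+ replicates 1 to 5. In untreated db/db replicates 1 to 5 it was 3.53, 71.5, 15.4, 1.47 and 20.2. In the treated db/db hearts it was 8.21 in replicate 1, 1.23 in replicate 2, 1.02 in the mean of replicates 3 and 4 and 1.70 in replicate 5. The untreated and db/+ ranges did not overlap, but untreated replicate 4 (1.47) lay close to the highest db/+ heart (1.29), and the treated range overlapped both others.

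**Figure D1:**
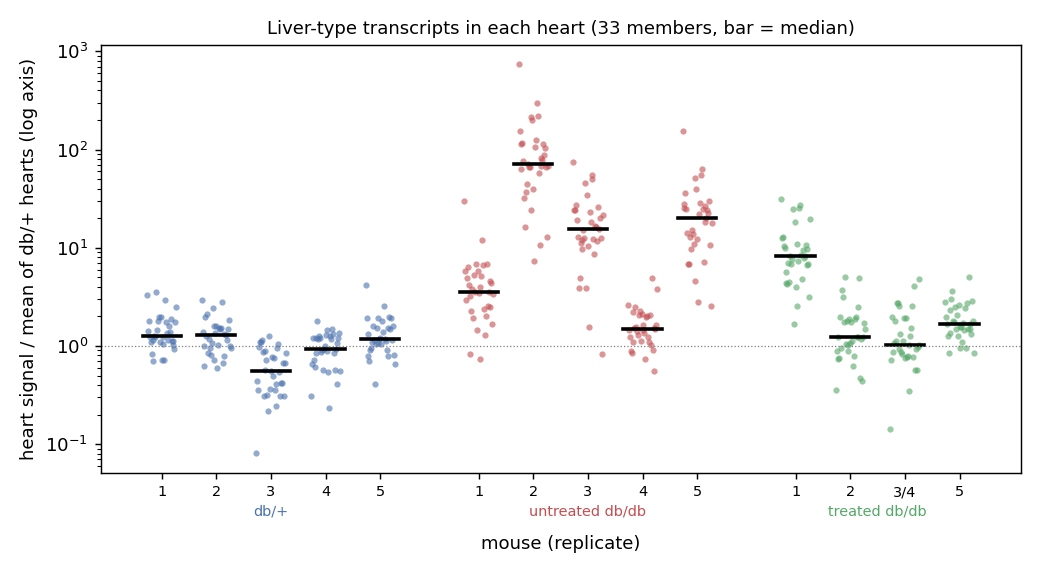
Heart signal of each of the 33 transcripts divided by its mean over the db/+ hearts (log axis), for each of 14 samples. Points are transcripts, black bars are medians, and the medians of untreated replicates 2, 3 and 5 and of treated replicate 1 were 71.5, 15.4, 20.2 and 8.21, against 0.558 to 1.29 in db/+ hearts.

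The number of transcripts well above background moved in the same way. It was 17, 23, 4, 14 and 18 of 33 in db/+ replicates 1 to 5, and 29, 33, 33, 19 and 33 in untreated replicates 1 to 5. In treated hearts it was 31 in replicate 1, 20 in replicate 2, 12 in replicate 3 and 19 in replicate 5, and replicate 4 was not counted. The heart signal was highest in untreated replicate 2 for all 33 transcripts. For 21 of them the 5 highest samples were the same, namely untreated replicates 2, 5, 3 and 1 and treated replicate 1. For 31 of them untreated replicates 2, 3 and 5 were among the 4 highest.

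The group differences rest on these few hearts. The log2 difference between untreated db/db and db/+ means was positive for 33 of 33 transcripts, with a median of 3.08 and a range from 0.96 for Ahsg to 4.45 for Ambp. From untreated to treated db/db hearts it was negative for 33 of 33, with a median of -2.31, from -3.82 for Fgg to -0.32 for Cyp2e1. Between treated db/db and db/+ hearts 31 of 33 were positive, with a median of 0.60, from -0.13 for Alb to 2.29 for Cyp2e1. The medians of all tested probes were 0.013, -0.009 and 0.005 in these comparisons, which share groups and are not independent. Without treated replicate 1 the median of the last comparison was 0.052.

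The median for untreated against db/+ hearts was 2.38 without untreated replicate 2 and 3.61 without untreated replicate 4. The arrays lay on 4 slides. Slide 1 held db/+ replicates 1 to 4, slide 2 db/+ replicate 5 with untreated replicates 1 to 3, slide 3 untreated replicates 4 and 5 with treated replicates 1 and 2, and slide 4 the other treated hearts. Within slide 2 the median difference between 3 untreated hearts and 1 db/+ heart was 3.20, with 33 of 33 positive. Within slide 3, where treated replicate 1 was one of the 2 treated hearts and untreated replicate 4 one of the 2 untreated, treated hearts differed by a median of -0.61, and 5 of 33 were positive. Because whole hearts were measured, more cells that make a transcript and more of it per cell cannot be told apart.

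In the limma fit over 27552 tested probes, 29 of the 33 transcripts passed the filter on dim probes, which kept a probe if the heart was well above background in 4 or 5 arrays of any group. Ttr, Apoa1, Fga and Hpd did not. Transcripts such as Apob, Apoc3, Apof, Cps1 and Aadac were well above background on 0 of 5 db/+ arrays. They passed the filter through the untreated group, which favoured a higher value there. At an adjusted p under 0.05, untreated db/db hearts exceeded db/+ hearts for 18 of the 29 and fell below them for 0, where 4.38% and 3.39% of all tested probes did. The 18 became 11, 2, 1 and 11 without db/+ replicates 2, 3, 4 and 5. They became 11, 10, 1, 26 and 4 without untreated replicates 1 to 5. Between treated and untreated hearts 0 of 29 passed, as did 0% of all tested probes. In treated db/db against db/+ hearts 1 of 29 passed, Cyp2e1, and was higher, where 4.50% of all probes were higher and 4.24% lower. The 1 became 0 without any 1 of db/+ replicates 3 and 4, untreated replicate 5 and treated replicates 1, 2, 3 with 4, and 5. These counts describe transcripts picked on the same values, and nothing is read from them.

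Without overlap between the groups in log2 ratio, 5 of the 29 lay higher in all untreated than in all db/+ hearts (4.34% of all tested probes). They were Rbp4, Apof, Itih3, Fbp1 and Cyp2e1. Apof alone was lower in all treated than in all untreated hearts (2.52% of all probes), but this did not hold in heart signal. The heart signal of Apof in treated replicate 1 was 298, above untreated replicates 1, 4 and 5 at 50.9, 57.6 and 268, and the reference signal on that array was 96.3, against at most 9.7 on db/+ arrays. Itih3 and Cyp2e1 were higher in all treated than in all db/+ hearts (7.61% of all probes). Those 2 were also the ones of the 33 that were higher in each of the 9 db/db samples than in any db/+ heart, and 2.86% of all tested probes were.

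Among the plasma carrier proteins, the median log2 difference of 8 transcripts was 2.74 for untreated set against db/+ hearts, -2.30 in treated against untreated hearts and 0.56 in treated against db/+ hearts. Alb encodes serum albumin, which binds fatty acids and bilirubin. Its heart signal was 463, 412, 11.5, 44 and 592 in db/+ replicates 1 to 5 and 4280, 105000, 10700, 368 and 21700 in untreated replicates 1 to 5. In treated replicates 1 to 5 it was 4450, 50.6, 11, 29.6 and 398. Untreated replicates 1, 2, 3 and 5 and treated replicate 1 thus stood above every db/+ heart, and untreated replicate 4 lay within the db/+ range.

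The log2 ratio of Alb did not follow this range. It was 2.86 ± 2.09 (SD, n = 5) in db/+, 4.80 ± 0.52 (SD, n = 5) in untreated and 2.74 ± 2.01 (SD, n = 4) in treated db/db hearts, and between db/+ replicate 2 and untreated replicate 2 it went only from 3.99 to 5.62. The reference signal at the same spot rose with the heart signal, although the reference RNA was common to all arrays. It was 10.4 to 27.2 on the db/+ arrays and reached 2140 in untreated replicate 2, 78.5 times the highest db/+ value. In the 5 highest hearts, untreated replicates 2, 5, 3 and 1 and treated replicate 1, the reference signal was 2.03%, 5.06%, 4.63%, 3.66% and 3.76% of the heart signal. The log2 ratio therefore holds a smaller difference for Alb than the heart signal does. In Apof, Cyp2e1 and Apoc3, the others of 4 transcripts past 5-fold, the reference signal reached 9.93, 5.92 and 5.71 times the highest db/+ value. The reason was not tested.

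**Figure D2:**
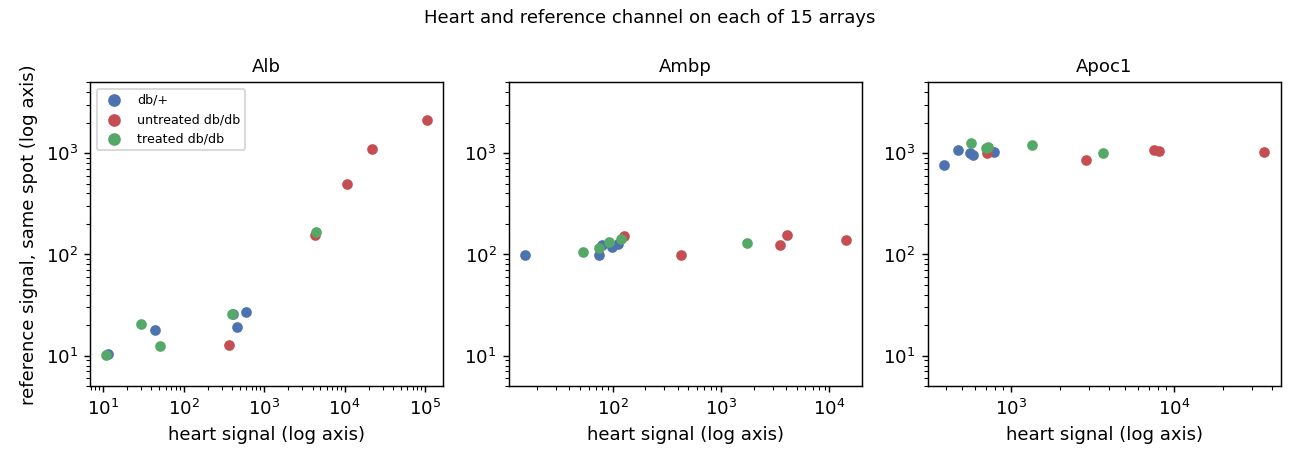
Reference signal against heart signal of the same spot (both log axes) for Alb, Ambp and Apoc1 on each of 15 arrays. The reference signal of Alb was 10.4 to 27.2 on db/+ arrays and 2140 in untreated replicate 2, while that of Ambp and Apoc1 reached no more than 1.22 and 1.18 times their highest db/+ value.

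Rbp4 encodes the plasma carrier of retinol and is also made by fat cells. Its log2 ratio was -2.47, -2.78, -3.12, -2.57 and -2.67 in db/+ replicates 1 to 5 and -0.86, 2.77, 0.42, -2.26 and 0.51 in untreated replicates 1 to 5. In treated replicates 1, 2, 3 with 4, and 5 it was -0.90, -2.53, -2.91 and -2.31. Every untreated heart was above every db/+ heart, but untreated replicate 4 by less than the range of the db/+ hearts, and treated replicates 1 and 5 lay above the db/+ range, the latter by a similar margin.

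Ambp encodes the precursor of alpha-1-microglobulin and bikunin, and it is described with other transcripts outside the naming rule because its difference in untreated hearts was seen to be the largest. In log2 ratio it stood at -0.18, -0.28, -2.68, -0.63 and -0.39 in db/+ hearts and 2.12, 6.67, 4.82, -0.23 and 4.70 in untreated hearts. In treated hearts it was 3.73, -0.25, -0.80 and -0.53. Untreated replicate 4 and 3 of the 4 treated samples fell within the db/+ range. Gc, the carrier of vitamin D, had a log2 ratio of 0.008 ± 0.64 (SD, n = 5) in db/+, 3.34 ± 2.02 (SD, n = 5) in untreated and 0.57 ± 1.25 (SD, n = 4) in treated hearts.

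Ahsg, fetuin-A, an inhibitor of mineral deposition, had the smallest difference of the set in log2 ratio. Its heart signal was 596 to 1540 in db/+ and 1320 to 13900 in untreated hearts. The reference signal at its spot rose too, to 2.62 times the highest db/+ value, so the log2 ratio holds less of the difference. The log2 ratio of Ahsg was 2.61, 2.54, 3.22, 2.98 and 2.83 in db/+ hearts, 3.68, 4.91, 3.79, 3.04 and 3.52 in untreated hearts and 3.69, 3.17, 3.47 and 3.42 in treated hearts. It was above every db/+ heart in treated replicates 1, 3 with 4, and 5 and in 4 of the 5 untreated hearts. The group means were 2.84 ± 0.28 (SD, n = 5), 3.79 ± 0.69 (SD, n = 5) and 3.44 ± 0.21 (SD, n = 4). Ttr, which carries thyroid hormone, was not well above background on any db/+ array, and its log2 ratio was listed at 0 on each of them.

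Among 7 apolipoproteins, the protein parts of lipoproteins, the median log2 differences were 2.66, -2.31 and 0.61 in the order above. Apoc1, which slows the uptake of lipoproteins, had log2 ratios of -0.39, -0.71, -0.97, -1.18 and -0.84 in db/+ hearts. In untreated hearts it had 1.73, 5.13, 2.96, -0.50 and 2.83, and in treated hearts 1.86, -1.16, -0.67 and 0.17. Treated replicate 5 lay above the db/+ range here, which it did not for Ambp, while untreated replicate 4 lay within it.

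Several apolipoproteins were not well above background on any db/+ array, so that only a bound holds for their difference. From the mean of normalized heart signals, with each array's lowest signal well above background standing in for a dimmer spot of the lower group, Apoc3, an inhibitor of lipoprotein lipase, was at least 5.32-fold higher in untreated than in db/+ hearts. Apof, which inhibits lipid transfer between lipoproteins, was at least 4.51-fold higher, Apob, the backbone of very low density lipoprotein, at least 3.71-fold and Apoa1, the main protein of high density lipoprotein, at least 2.11-fold. Outside the apolipoproteins, the bound was 6.14-fold for Aadac, a microsomal esterase, 3.67-fold for Cps1 and 2.76-fold for Hpd. The bounds rest on 1 channel with no dye swap, and dye bias was not tested. For treated against db/+ hearts a bound above 1 could be given for Aadac alone, at 1.21-fold. Ttr and Fga were at least 1.16-fold and 1.15-fold lower in treated than in untreated hearts.

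Of 6 coagulation factors and inhibitors of proteases, the median log2 differences were 3.27, -2.74 and 0.48. Fgb encodes the beta chain of fibrinogen, the protein of blood clots, and its promoter is shown above with that of Alb. For Fgb the log2 ratio was 0.96, 1.63, -2.0, -0.33 and 1.38 in db/+ hearts, 2.71, 5.58, 4.25, 0.89 and 3.67 in untreated hearts and 3.69, -0.34, -0.33 and 0.89 in treated hearts. The db/+ hearts themselves spanned over 3 log2 units, and untreated replicate 4 and 3 of the 4 treated samples lay within their span. Serpinc1, antithrombin, had 2 probes, which differed between untreated and db/+ hearts by 3.63 and 0.81 on the log2 scale.

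Itih3 is a heavy chain of the inter-alpha-trypsin inhibitor, which binds hyaluronan. Its log2 ratio was -0.30, -0.014, -1.79, -0.78 and 0.042 in db/+ hearts, 0.88, 4.81, 2.95, 0.40 and 2.60 in untreated hearts and 1.66, 0.47, 0.58 and 0.94 in treated hearts. All 9 db/db samples were above all db/+ hearts. Its means were -0.57 ± 0.76 (SD, n = 5), 2.33 ± 1.77 (SD, n = 5) and 0.91 ± 0.54 (SD, n = 4).

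The 8 enzymes of amino acid, urea and sugar metabolism had median log2 differences of 3.12, -2.05 and 0.75. Fbp1, fructose-bisphosphatase of glucose synthesis, had log2 ratios of -2.31, -2.85, -4.24, -3.30 and -2.96 in db/+ hearts, -0.43, 4.34, 2.03, -2.26 and 1.92 in untreated hearts and 0.85, -2.75, -2.43 and -2.25 in treated hearts. Its lowest untreated heart was above its highest db/+ heart by less than 0.1. Tat, tyrosine aminotransferase, which glucocorticoids induce in liver, had the smallest difference of the enzymes. Tat had log2 ratios of 0.57, 0.61, 0.51, 0.79 and 1.02 in db/+ hearts, 0.88, 4.26, 2.07, 0.58 and 1.6 in untreated hearts and 1.09, 0.74, 0.64 and 0.40 in treated hearts. Untreated replicates 2, 3 and 5 stood apart, and untreated replicates 1 and 4 lay within the db/+ range.

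Cps1, carbamoyl-phosphate synthetase, the first step of the urea cycle, had log2 ratios of 2.88, 7.75, 5.15, 0 and 5.24 in untreated hearts and was not well above background in any db/+ heart. Arg1, arginase, the last step of that cycle and also a product of macrophages, had mean log2 ratios of -1.82 ± 1.13 (SD, n = 5), 1.56 ± 2.60 (SD, n = 5) and -0.16 ± 1.15 (SD, n = 4). Tdo2, which opens the ring of tryptophan, had 2 probes, and the log2 difference of treated against db/+ hearts was 0.33 at the brighter and -0.29 at the dimmer. A further probe of Apob and 1 of Cyp3a44 were not well above background on any array. The second probes of Apob, Apoc3 and Serpinc1 that were had differences of the same sign as the brighter ones in all 3 comparisons.

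For 4 transcripts of drug metabolism and transport, the median log2 differences were 3.23, -2.70 and 0.53. Slco1b2, the transporter that takes bile acids and drugs into hepatocytes, had mean log2 ratios of 0.77 ± 0.76 (SD, n = 5), 3.85 ± 2.26 (SD, n = 5) and 1.23 ± 0.92 (SD, n = 4). Cyp3a44, a steroid- and drug-oxidising cytochrome P450, belongs to a family of near-identical genes that may share signal, and its log2 difference in untreated hearts was 3.38. The probes of Serpina1b, Serpina1c and Serpina1d, relatives of Serpina1a that inhibit neutrophil elastase, differed by 1.97, 0.57 and 0.22 on the log2 scale between untreated and db/+ hearts, and may share signal as well. The heart signal of Serpina1d was 2370 to 4300 in db/+ hearts and 58900 in untreated replicate 2.

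Cyp2e1, which oxidises ethanol and acetone, was the transcript with the largest difference between treated db/db and db/+ hearts. Its log2 ratio was 3.09, 2.97, 0, 1.37 and 3.17 in db/+ hearts, 3.49, 5.77, 5.60, 4.24 and 4.55 in untreated hearts and 4.99, 4.23, 4.0 and 4.42 in treated hearts. Its heart signal was 60.9, 49.5, 9.95, 18.6 and 63.5 in db/+ hearts, 82, 2550, 379, 160 and 653 in untreated hearts and 267, 159, 120, 143 and 164 in treated replicates 1 to 5. Every db/db heart was above every db/+ heart on both scales, although untreated replicate 2 was far above the rest in heart signal. The value of 0 in db/+ replicate 3 is what the extraction software wrote where both signals were dim. Over all transcripts, 36 of 461 values were exactly 0, at heart signals of 7.62 to 13.4, and 21 of them were in db/+ hearts.

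**Figure D3:**
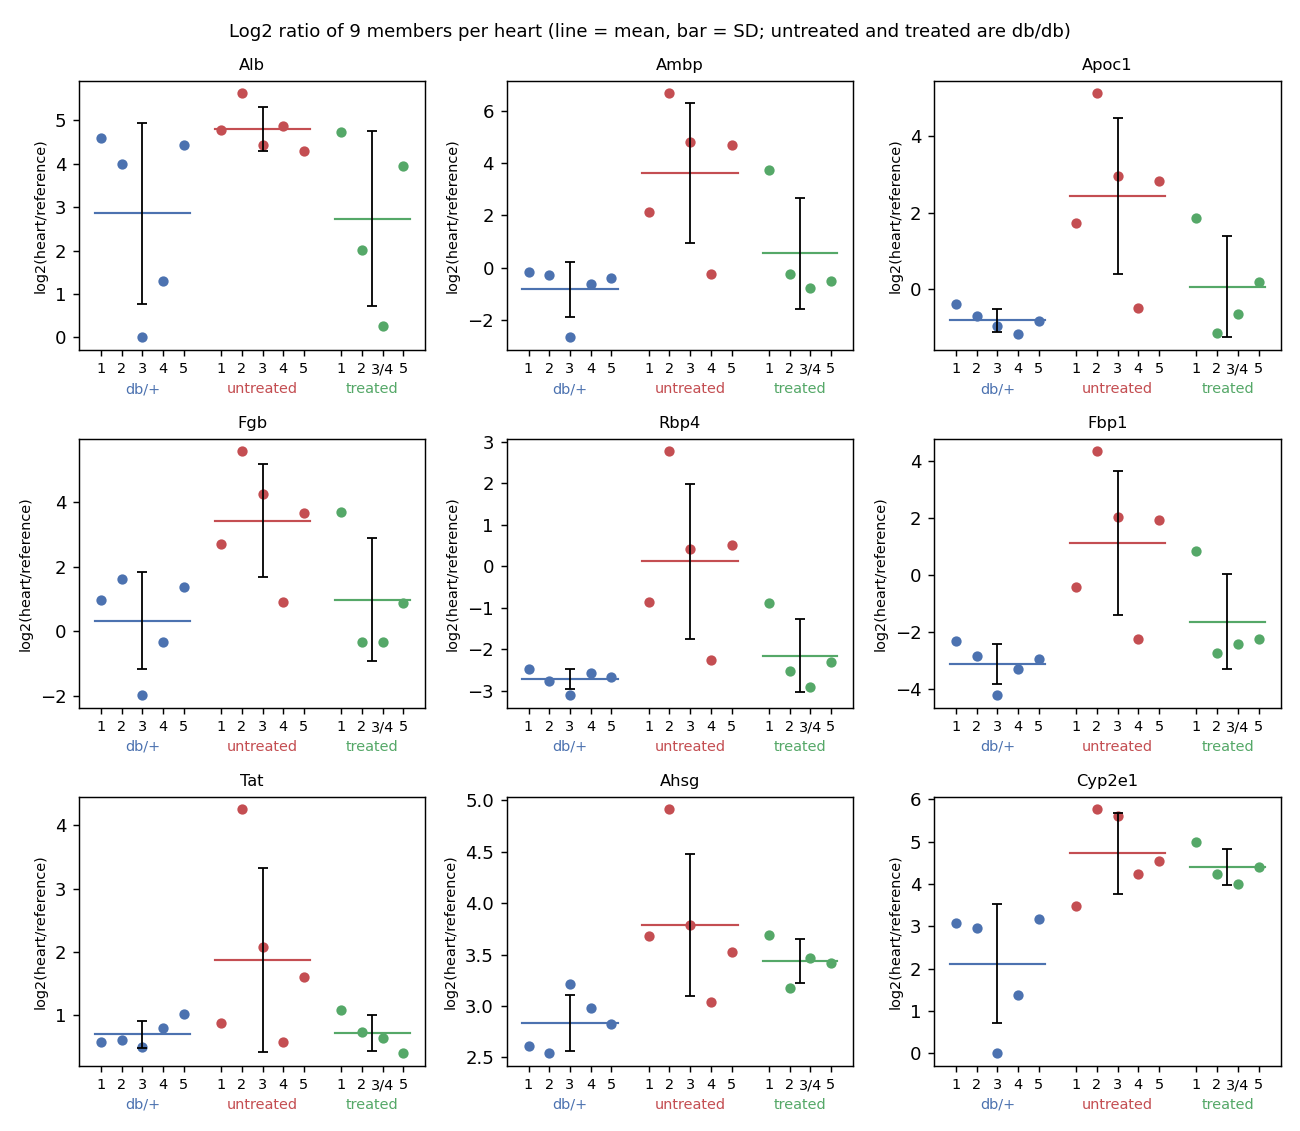
The vertical axis gives the log2 ratio, heart over reference, of 9 liver-type transcripts in each of 14 samples, by group, with the mean (line) and SD (bar). Untreated replicate 2 is the highest sample in all 9 panels, and Cyp2e1 is the panel in which all 9 db/db samples lie above all db/+ hearts.

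The transcripts moved together from heart to heart. After each group was centred on its mean, the Pearson correlation of the log2 ratio over the 14 samples was computed for the 406 pairs of the 29 tested transcripts. The median was 0.85, from -0.05 to 0.99, and 405 pairs were positive. Without untreated replicates 2 and 4, the samples farthest from the others, the median was 0.70, from -0.49 to 0.98, with 397 positive. The transcripts were picked because these arrays showed them high in some hearts, which favours such correlations, and no value over all tested probes is given. The points also share the library, the slide and the reference, so this is a description. Bhmt, an enzyme of methionine synthesis, had the highest median correlation with the others, at 0.94, followed by Gc at 0.93. Alb had the lowest at 0.39, followed by Cyp2e1 at 0.62, Tdo2 at 0.67 and Ahsg at 0.70. These values use the log2 ratio. The reference signal reached 78.5, 5.92 and 2.62 times the highest db/+ value for Alb, Cyp2e1 and Ahsg. It also reached 9.93, 5.71, 4.44 and 3.91 times that value for Apof, Apoc3, Fgb and Apoh. The median correlations of those 4 were 0.74, 0.86, 0.85 and 0.90. The part of the reference signal in the correlations was not tested. In heart signal Alb was among the 21 transcripts with the same 5 highest samples.

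The heart signals did not keep 1 ratio between pairs of hearts, although the quartiles lay closer together than the extremes. Untreated replicate 2 over untreated replicate 5 gave a median ratio of 4.49 for the 33 transcripts, from 1.49 to 6.23, while other liver genes gave 2.0 and all tested probes 0.818. Untreated replicate 5 over replicate 3 gave 1.16 for the transcripts (0.825 to 3.07), 1.25 for other liver genes and 1.06 for all probes. Untreated replicate 3 over treated replicate 1 gave 1.93 (0.261 to 2.60) for the transcripts well above background in both hearts, against 1.05 and 0.933. Treated replicate 1 over untreated replicate 1 gave 2.14 (1.04 to 5.87), against 1.58 and 1.14. In the order of these pairs, the quartiles for the transcripts were 3.19 and 4.85, 1.05 and 1.48, 1.61 and 2.21, and 1.41 and 3.43. The lowest ratio, 0.261, came from Tdo2, with heart signals of 43.2 in untreated replicate 3 and 165 in treated replicate 1. Its dimmer probe went the other way, with 55.6 and 9.76.

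A list of 184 other liver genes, not in the set, was used to see which further genes differed. The list was chosen with earlier results of these data known. Its genes were measured in the same few hearts, so a count of genes is not a count of independent observations. Of the 179 measured, 132 were tested. Some of them, such as Serpina3k, Kng1 and Mbl1, were well above background on 0 of 5 db/+ arrays. They passed the filter through the untreated group, which favoured a higher value there, and the counts below include such genes. With untreated db/db set against db/+ hearts, 32 of the 132 rose and 0 fell, 85 had an unadjusted p under 0.05, 118 were positive and the median log2 difference was 0.76, against 4.38% and 0.013 over all tested probes. The count of 32 was 20, 16, 17 and 20 without db/+ replicates 2, 3, 4 and 5. It was 20, 14, 55 and 17 without untreated replicates 2, 3, 4 and 5, and 19 without any 1 of treated replicates 2, 3 with 4, or 5. With slide as a fixed block 0 passed, where 32 of all tested probes did, while the median was 0.98 and 113 of 132 were positive. By kind, 12 of 45 plasma proteins, 2 of 14 genes of apolipoproteins and bile acid synthesis, 11 of 34 of amino acid, urea and sugar metabolism and 7 of 39 of drug metabolism and transport rose.

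In treated against untreated hearts 0 of the 132 passed in limma, with 43 at an unadjusted p under 0.05, 22 positive and a median of -0.51. In treated db/db against db/+ hearts 12 rose and 0 fell, 23 had an unadjusted p under 0.05, 94 were positive and the median was 0.23, where 4.50% of all probes rose. They were 5 of 45 plasma proteins, 1 of 14 apolipoprotein and bile acid genes, 4 of 34 metabolic genes and 2 of 39 of drug metabolism. Of these 12, 11 had also risen in untreated hearts, and both comparisons share the db/+ hearts. No slide held both treated and db/+ hearts. With slide as a fixed block this comparison thus joins the differences within slides 2 and 3, and rests on db/+ replicate 5 alone. With slide as a fixed block 0 passed here too, where 4 of all tested probes did, and the median was 0.73 with 108 positive.

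Some of the genes that rose were higher in all db/db hearts than in any db/+ heart. Agt, the precursor of angiotensin, which heart cells also make, had log2 ratios of 1.25, 1.33, 0.94, 1.05 and 1.52 in db/+ hearts. It had 3.03, 4.21, 3.72, 3.47 and 3.40 in untreated hearts and 3.43, 3.61, 3.39 and 3.50 in treated hearts. It rose by 2.35 ± 0.18 (SE, adjusted p = 1.5e-05) in untreated and by 2.26 ± 0.19 (SE, adjusted p = 2.7e-05) in treated against db/+ hearts in the limma fit. The lowest db/db value, in untreated replicate 1, was above the highest db/+ value, and untreated replicate 2 was the highest of all.

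Serpina3n, an acute-phase protease inhibitor, rose by 2.26 in untreated and 2.44 in treated hearts in the limma fit (adjusted p = 8.7e-05 and 7.1e-05). Fetub, fetuin-B, rose by 2.18 and 2.10 (adjusted p = 2e-04 and 0.00035), and Hp, haptoglobin, the carrier of free haemoglobin, by 3.58 and 2.66 (adjusted p = 0.00028 and 0.0033). For all 3 genes each of the 9 db/db samples was above each db/+ heart. Apoc2, the activator of lipoprotein lipase, rose by 2.24 and 1.88 (adjusted p = 0.0041 and 0.014). Urah, of urate breakdown, rose by 1.07 and 1.2 (adjusted p = 0.0035 and 0.0024), and Hsd11b1, which regenerates active glucocorticoid, by 0.71 and 0.62 (adjusted p = 0.0073 and 0.018).

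C3, the central protein of complement, rose by 1.11 in untreated and 1.1 in treated hearts in the limma fit (adjusted p = 0.014 and 0.019). Fah, the last enzyme of tyrosine breakdown, rose by 0.54 and 0.58 (adjusted p = 0.0074 and 0.0063), and Upb1, of pyrimidine breakdown, by 0.72 and 0.78 (adjusted p = 0.019 and 0.017). Glul, glutamine synthetase, rose by 0.59 and 0.61 (adjusted p = 0.041 and 0.043), and passed in 2 and 3 of the 14 fits that left out 1 sample. With slide as a fixed block the differences of Agt, Serpina3n, Fetub and Hp in untreated hearts were 2.13, 2.33, 2.25 and 3.68 (adjusted p = 0.056, 0.1, 0.1 and 0.15).

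The further genes named here passed in untreated hearts and not in treated against db/+ hearts, a difference that was not tested between the comparisons. Apoc4, an apolipoprotein, rose by 2.23 (adjusted p = 0.018 in the limma fit), Gnmt, which uses up methyl groups, by 1.02 (adjusted p = 0.015) and Nags, which makes the activator of Cps1, by 2.36 (adjusted p = 0.022). C4bp, of complement control, rose by 3.06 (adjusted p = 0.035), F10 by 1.63 (adjusted p = 0.037), Gulo, of vitamin C synthesis, by 1.89 (adjusted p = 0.034) and Pipox, of pipecolic acid breakdown, by 0.96 (adjusted p = 0.038). Adh4, an alcohol dehydrogenase, Gsta3, a glutathione transferase, Slc22a30 and Slc2a2, the glucose transporter of hepatocytes, rose by 1.72, 1.05, 1.05 and 1.67 (adjusted p = 0.029, 0.038, 0.048 and 0.048). Of these 11, Apoc4 and Gnmt passed in all 14 fits that left out 1 sample, Nags in 13, Adh4 in 9, Gulo in 8, C4bp and F10 in 7, Gsta3 in 6, Pipox in 4, Slc2a2 in 3 and Slc22a30 in 1.

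Mug1, Serpina3k, Cyp4a14 and Cyp2d10 were highest in untreated replicate 2, and Serpina3k was named after its values were seen. Mug1, murinoglobulin, a broad protease inhibitor, rose by 4.07 (adjusted p = 0.0058) in the limma fit, in which untreated replicate 4 had no value because its spot was marked as uneven, and its difference in treated against db/+ hearts was -0.25 (adjusted p = 0.86). Serpina3k, a plasma protease inhibitor, rose by 3.24 (adjusted p = 0.047), with log2 ratios of 3.71, 7.16, 5.24, 1.27 and 5.50 in untreated hearts and 2.74, 0.56, 0, 1.80 and 1.56 in db/+ hearts. In treated hearts it had 4.30, 1.86, 1.68 and 2.18. Cyp4a14, a fatty acid hydroxylase, rose by 2.97 (adjusted p = 0.038) and was higher in log2 ratio in all 9 db/db samples than in any db/+ heart, and Cyp2d10, of drug oxidation, rose by 2.17 (adjusted p = 0.025). Of the 4 genes, Serpina3k passed in 3 and Cyp4a14 in 4 of the 14 fits that left out 1 sample, Cyp2d10 in 10 and Mug1 in 14.

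**Figure D4:**
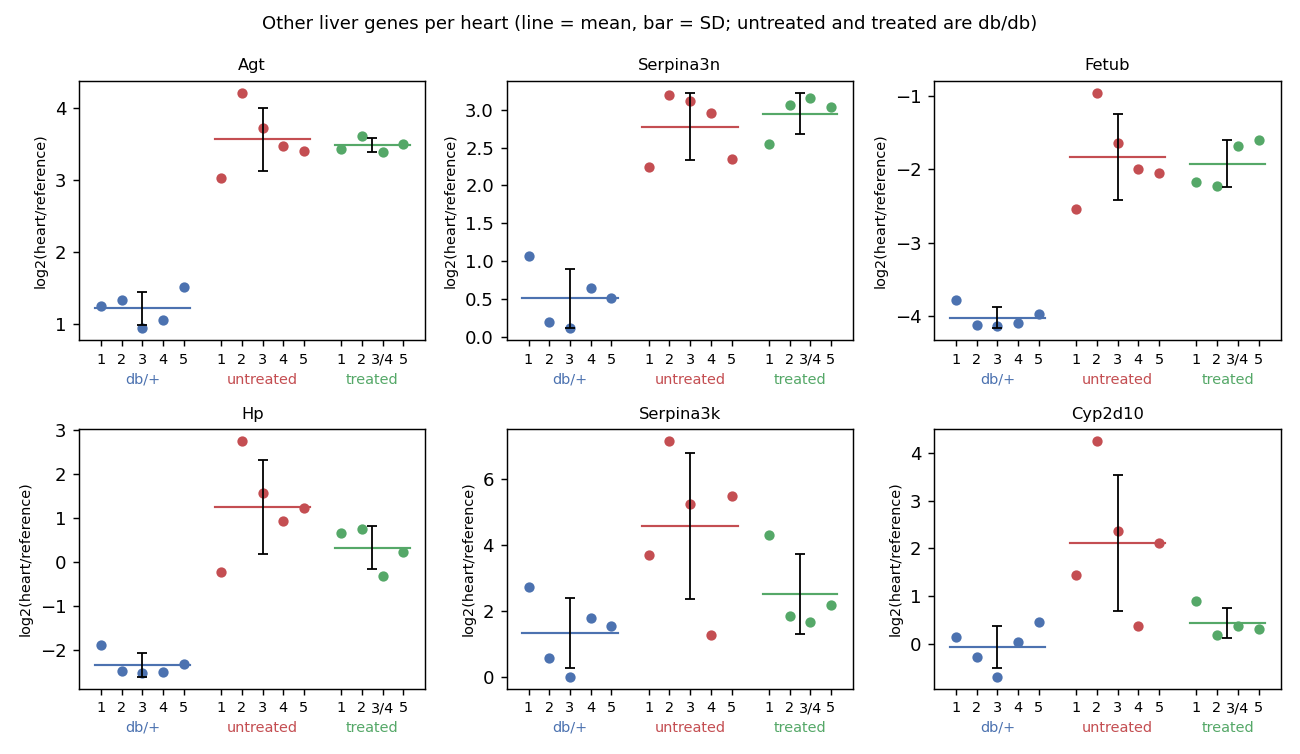
The vertical axis gives the log2 ratio, heart over reference, of 6 liver genes outside the set in each of 14 samples, with the mean (line) and SD (bar). Agt, Serpina3n, Fetub and Hp show all 9 db/db samples above all db/+ hearts, while in Serpina3k and Cyp2d10 untreated replicate 4 lies within the db/+ range.

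Over the 32 genes that rose in untreated hearts, 18 were higher in each of the 9 db/db samples than in any db/+ heart, and 25 were higher in untreated replicate 4 than in any db/+ heart. A call favours genes that move in every heart, so these counts were set by it in part. Over all 132 tested, whether called or not, 19 were higher in all 9, against 2 of the 33 liver-type transcripts and 2.86% of all tested probes. The difference between these shares was not tested.

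Markers of the other cells of liver were read as lists. Of 10 markers of Kupffer cells, the macrophages of liver, 1 rose in untreated hearts, Clec4f (log2 difference 1.89, adjusted p = 0.0015 in the limma fit), which was also higher in treated hearts (2.26, adjusted p = 0.00061). Clec4f had its highest log2 ratio, 4.88, in untreated replicate 4, the untreated heart with the lowest median of the liver-type transcripts. The median of the 10 Kupffer markers, as log2 ratio over the db/+ mean, was -0.48 to 0.43 in db/+, -0.61 to 0.54 in untreated and -0.14 to 0.11 in treated hearts. Their summed heart signal was 28400 to 57600, 28800 to 68300 and 52700 to 96900. All 10 were well above background in all groups, and many are made by heart macrophages too.

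Of 8 tested markers of the liver sinusoidal endothelium 0 passed in untreated hearts (limma, 1 at an unadjusted p under 0.05), and their median ranged from -0.42 to 0.48 there, with a summed heart signal of 11500 to 19100 in db/+, 13800 to 21700 in untreated and 17700 to 32500 in treated hearts. Of the sinusoidal markers, Clec4g was among the 12 genes most like the set over the samples, described below. Of 6 tested cholangiocyte markers 0 passed, and 0 had an unadjusted p under 0.05. Their summed signal was 6610 to 32900, 6630 to 12500 and 7720 to 11200. Of 11 tested transcription factors of liver, Creb3l3, which controls genes of the fed and fasted liver, was the 1 that fell in untreated hearts (-1.37, adjusted p = 0.04), and it passed in 6 of the 14 fits that left out 1 sample. In treated hearts Nr5a2, a receptor of bile acid synthesis, fell by 1.55 (adjusted p = 0.021, passed in 11 of 14 such fits), and the endothelial marker Dnase1l3 fell by 1.99 (adjusted p = 0.01).

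**Figure D5:**
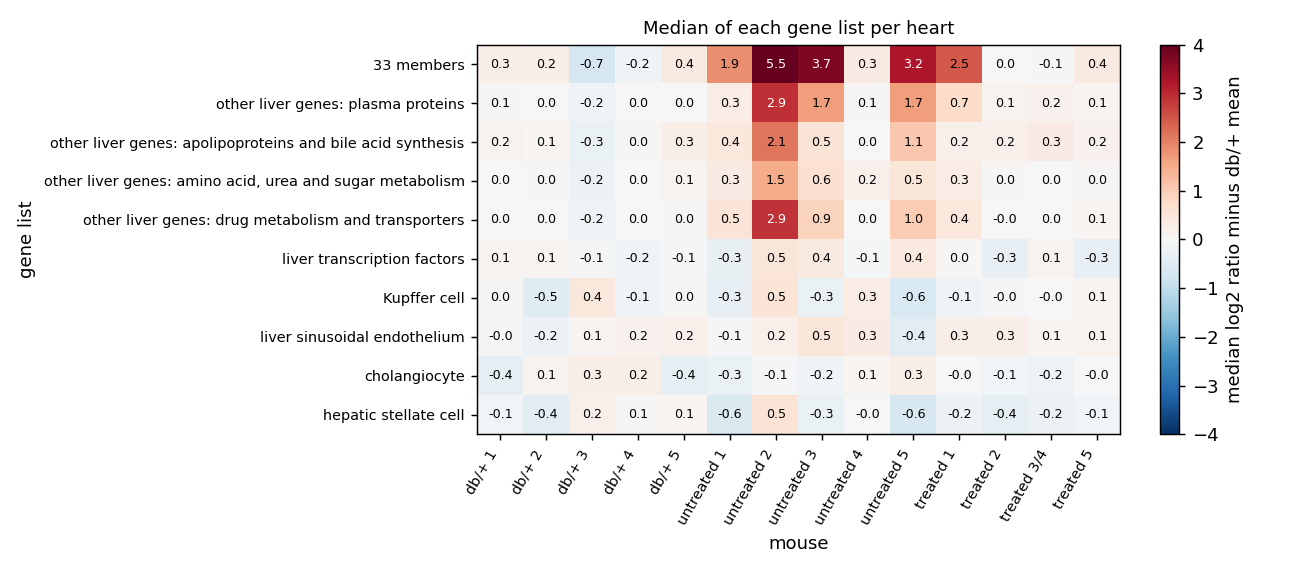
Median log2 ratio minus the db/+ mean (number, and colour that ends at 4) of each gene list (rows) in each of 14 samples (columns). The 33 liver-type transcripts had medians of 1.86, 5.52, 3.75, 0.32 and 3.23 in untreated replicates 1 to 5 and 2.47 in treated replicate 1, and the 4 rows of other liver genes had lower medians in the same hearts.

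The hearts carried the markers of heart muscle. Myh6, the main myosin of the mouse heart, had a heart signal of 890000 to 1580000 in db/+, 974000 to 1350000 in untreated and 933000 to 1290000 in treated hearts, and Ryr2, the calcium release channel of heart muscle, had 22300 to 58400, 32800 to 75900 and 62400 to 87100. The other 10 of 12 cardiomyocyte markers lacked a value on at least 1 array, where the spot was marked as uneven. Of the 12, 0 passed in untreated against db/+ hearts in limma, 1 had an unadjusted p under 0.05, 2 were positive and the median difference was -0.21. The median of the markers with a value, as log2 ratio over the db/+ mean, was 0.23, -2.58, 1.1, -0.57 and 0.35 in db/+ replicates 1 to 5 and -0.93, 0.62, -1.01, 0.50 and -1.84 in untreated replicates 1 to 5, and 0.001 to 0.33 in treated hearts. It was thus low in db/+ replicates 2 and 4 and in untreated replicates 1, 3 and 5. There 5 to 9 of the 12 had a value well above background, against 11 or 12 in the other hearts. A marker left out as uneven was counted as not well above background, and the median rests on the markers that remained. The sum of Myh6 and Ryr2, measured on all arrays, had a median of 1170000 in db/+ and 1150000 in untreated hearts. The median of the markers is therefore not read as a loss of heart muscle signal. The part of this in the liver-type transcripts was not tested. Summed over the 32 liver-type transcripts measured on all arrays, the heart signal was 1990 to 4200 in db/+, 5040 to 276000 in untreated and 5330 to 25600 in treated hearts, below that of Myh6 alone in every heart.

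Markers of other organs near the heart or often found with it were also read. In untreated db/db hearts Adipoq and Cfd, of white fat cells, fell by 2.39 and 3.55 (adjusted p = 0.01 and 0.00082 in limma), 2 of 9 tested. Cela1, a pancreatic elastase, rose by 0.93 (adjusted p = 0.0013), 1 of 6 acinar markers, although the difference was -0.092 with normexp and loess. Vil1, of intestinal epithelium, rose by 0.96 (adjusted p = 0.027, passed in 11 of 14 fits that left out 1 sample), 1 of 6, and Cubn, of kidney tubules, by 1.13 (adjusted p = 0.0039), 1 of 6. Ecm1, of the stellate cell list, rose by 0.86 (adjusted p = 0.012), 1 of 5, and Mylpf, of skeletal muscle, fell by 0.62 (adjusted p = 0.016), 1 of 9. Of the erythroid, lung epithelium, thymocyte and brown fat markers, 0 of 5, 0 of 4, 0 of 5 and 0 of 5 passed, with 1, 0, 0 and 0 at an unadjusted p under 0.05. In treated against db/+ hearts each of these genes also passed in the same direction, and Dio2, of brown fat cells, rose by 1.21 (adjusted p = 0.022). With slide as a fixed block 0 markers of any list passed in either comparison, and the differences in untreated hearts were 1.39 for Clec4f, -2.22 for Adipoq, -2.53 for Cfd, 0.83 for Cela1, 0.71 for Vil1, 0.81 for Cubn, 0.93 for Ecm1 and -0.50 for Mylpf. The part of liver cells or of heart muscle itself in the liver-type transcripts was not tested.

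The genes outside the set whose pattern was most like it were sought among 14722 probes well above background on all arrays, by the Pearson correlation of the group-centred log2 ratio with the mean of the set over 14 samples. Azgp1, a zinc-binding plasma glycoprotein, came first with r = 0.97, or 0.93 without untreated replicates 2 and 4. Its log2 ratio was 0.94, 0.95, 0.55, 0.21 and 0.83 in db/+ hearts, 1.41, 5.38, 3.27, 0.34 and 2.80 in untreated hearts and 2.0, 0.38, 0.53 and 0.86 in treated hearts. Next came 1300017J02Rik at 0.94, Cyp2d26, of drug oxidation, at 0.93, Serpina3m at 0.93, 3010003L21Rik at 0.91, and F10, coagulation factor X, at 0.90. Hrg, Cpxm1, Matn2, Gls2, Fkbp9 and Clec4g followed at 0.87 to 0.86. Of the 12, 6 were on the list of other liver genes, as were 0.414% of the candidates. Without db/+ replicate 3 and untreated replicate 2, 4 of the 12 were the same, and without centring 6 were.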

How the data were processed

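Hearts of 3 groups of 5 mice were measured on 15 two-colour Agilent 4x44K arrays. The deposited files hold, for each spot, a processed intensity for the heart (Cy5) and the reference (Cy3) and a log10 ratio of them, made by the authors with Feature Extraction 9.5.1.1, which subtracted background and applied LOWESS dye normalization. The log10 ratio was converted to log2. Control spots and spots marked as uneven (9 to 1046 an array) were left out, spots of a probe were averaged, and 1 value of the set, Apoc3 in db/+ replicate 2, was lost in this way. Of 41174 probes, 27552 were tested. Median heart signal was 158 to 302 an array, and the number of arrays limits precision. Probe positions in the files are on mm8 and are not printed. Promoters are from GRCm38.p6.

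The arrays of treated replicates 3 and 4 differed by a median absolute deviation of 0.115 in log2 heart signal, against 0.239 to 0.576 for 29 other pairs of a group, and less than 101 of 105 pairs of arrays differed in the reference channel. They were averaged and counted as 1 sample, leaving 14. Nothing else states that the hearts of a group are more than separate samples of 1 experiment. Groups were compared with limma 3.58.1 in R 4.3.3 (lmFit and eBayes, 11 residual degrees of freedom, Benjamini-Hochberg adjustment over the tested probes), with statmod 1.5.0 and the package data.table (version 1.17.8). An adjusted p in the text is from this fit, and a difference is the fitted log2 difference. The fit was tested on simulated data. SAM, which the study used, was not run because it regroups samples.

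The liver-type transcripts and all gene lists were chosen with earlier results of these data known. Values in every heart were given, by rule, for Alb and for the 2 transcripts of each role with the widest range among those well above background on all arrays, which left Ahsg, Rbp4, Apoc1 and Tat. The others were described after their values were seen. Of the lists, genes that passed are named, up to 8 a list and comparison by smallest p, except 1 that is not reported here. Replicate numbers did not pair the samples, since the 13 same-numbered pairs had correlations of -0.181 to 0.057. The value table of the series held the same ratios.

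As alternatives, each sample was left out in turn, the background was corrected by normexp (offset 50) before loess, arrays were scaled to each other, the filter was dropped or made stricter, slide or replicate number entered as a block, arrays were weighted, the fit held just 2 groups, probes of a gene were averaged, treated replicates 3 and 4 were kept apart, and the threshold was 0.10. Further settings, chosen after seeing the data, kept uneven spots, held to genes matched by name, or used the heart channel alone.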

Additional observations from a re-analysis of the deposited data

Results flagged for a closer look

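In groups of 4 or 5 samples, 36 groups of values were examined for a sample that lies far from the others, by the gap to the nearest sample over the range of the group, and 4 stood out. Chance gives about 1 in 20 for values not picked beforehand, but these transcripts were picked for such hearts and move together, so the count is not read against that rate. The median log2 ratio of the liver-type transcripts in treated replicate 1, 2.05 against 0 to 0.17 in the other treated samples, had a share of 0.917. Ambp in treated replicate 1, 3.73 against -0.80 to -0.25, had a share of 0.878, and Fbp1 in treated replicate 1, 0.85 against -2.75 to -2.25, had 0.86. Ambp in db/+ replicate 3, -2.68 against -0.63 to -0.18, had 0.821.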

How the results depend on the processing

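The median log2 difference of the 33 liver-type transcripts in untreated against db/+ hearts was 1.52 with normexp and loess and 2.38 to 3.61 when 1 sample was left out. In treated against untreated hearts it was -0.61 with slide as a fixed block and -3.06 to -1.68 when 1 sample was left out, and in treated against db/+ hearts 2.60 with that block and 0.052 to 0.80. The value of 2.60 is indirect, since no slide held both treated and db/+ hearts, and it rests on db/+ replicate 5 alone. The 32 other liver genes that rose in untreated hearts were 16 with no filter, 0 with slide as a fixed block, where 32 probes passed in all, 68 with slide as a random block, whose correlation was -0.114, 11 with only the groups compared, 17 with array weights, 55 at an adjusted p under 0.10 and 17 without db/+ replicate 3 and untreated replicate 2 together. Leaving out 1 sample gave 14 to 55. With a replicate block, although numbers do not pair the hearts, 14 rose. The 12 of treated against db/+ hearts were 0 with slide as a fixed block, 19 with the heart channel alone, chosen after seeing the data, and 9 to 14 with 1 sample left out. The cause was not tested. Between treated and untreated hearts 0 passed in each fit that left out 1 sample. In untreated hearts 12 of the 32 genes, and in treated hearts 8 of the 12, passed whichever sample was left out. Hgfac (-0.078) and Cela1 (-0.092) changed sign in untreated against db/+ hearts under normexp and loess. The likeness list shared 4 and 6 of its 12 genes under its alternatives. Dim db/+ spots limit the size of differences for Ttr, Apoa1, Apob, Apoc3, Apof, Fga, Cps1, Hpd and Aadac.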
